A study of Mus musculus with 35 samples.

Results

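The mitochondrial ribosomal proteins are the proteins, encoded in the nucleus under the gene symbols Mrpl and Mrps, that build the ribosome inside mitochondria. They were taken here as every row of the expression matrix that carried a single gene symbol starting with Mrpl or Mrps and a digit. That gave 78 transcript clusters (sets of probes summarized to 1 value per array each) for 73 genes, out of 17958 clusters for 15224 genes with a symbol of their own. Of the 78 clusters, 50 have an Mrpl and 28 an Mrps symbol. All 78 matched a RefSeq gene of the same symbol, and the 73 genes are 73 of the 78 protein-coding Mrpl and Mrps genes that RefSeq lists. A further 5 clusters name a member together with another gene (for example Mrps6 with Slc5a3) and were left out.

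The mitochondrial ribosome translates a handful of messenger RNAs made from mitochondrial DNA, all of which encode subunits of the respiratory chain and the ATP synthase. Its ribosomal RNAs are made inside the organelle, whereas its proteins are made in the cytosol and imported. A large subunit forms the peptide bonds and a small subunit reads the messenger RNA, and each holds proteins with bacterial relatives and proteins found only in mitochondria. Fat cells rich in mitochondria, such as thermogenic ones, need this machinery to build their respiratory chain.

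Expression was measured in 35 cultures of primary adipocytes grown from precursor cells of mouse inguinal subcutaneous fat, 1 Affymetrix Mouse Exon 1.0 ST array each. The cultures came from SV129 or C57BL/6J mice (the latter strain is called C57BL/6 in the methods), with no transgene or deletion named. Untreated cultures were taken on day 3 (n = 4 per strain) and on day 7 (control, n = 4 per strain). Day 7 cultures with 1 µM norepinephrine (NE, n = 5 per strain), the transmitter that drives thermogenesis, or 1 µM rosiglitazone maleate (ROSI, n = 5 in SV129 and n = 4 in C57BL/6J), an agonist of the receptor PPARG, had the drug from the first day of culture. One note on treatment names both drugs for all samples, so groups here follow the treatment given for the individual sample. All cultures share a medium with newborn calf serum and insulin. Mouse ages and sexes are not given, and the labels do not say whether cultures of a group came from separate mice, so p-values measure the spread between cultures, which may be technical. The methods, which describe the control and ROSI cultures, state that outlying samples were removed before analysis.

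The values are RMA log2 intensities as deposited. They ran from 2.57 to 14.42, and array medians from 8.03 to 8.24. The adipocyte genes Adipoq, Fabp4 and Plin1 were high in all 8 groups, with group means from 11.2 to 13.5, day 3 included. Arrays of 1 group differed most in SV129 ROSI. Over the 78 clusters the median per array was 9.37, 9.63, 9.80, 9.91 and 9.98 there, against 9.16 to 9.35 in SV129 control. The lowest of these, SV129 ROSI replicate 1, also had the lowest summed level of 11 adipocyte markers among ROSI arrays, at 15.47 on the log2 scale against 15.90 to 16.18 in the other 8. This array, SV129 ROSI replicate 6 and SV129 control replicates 5 and 6 had stood apart in an earlier analysis of these data, so counts are also given without these 4 arrays. In bulk RNA, fewer cells of a type and less RNA per cell cannot be told apart.

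**Figure D1:**
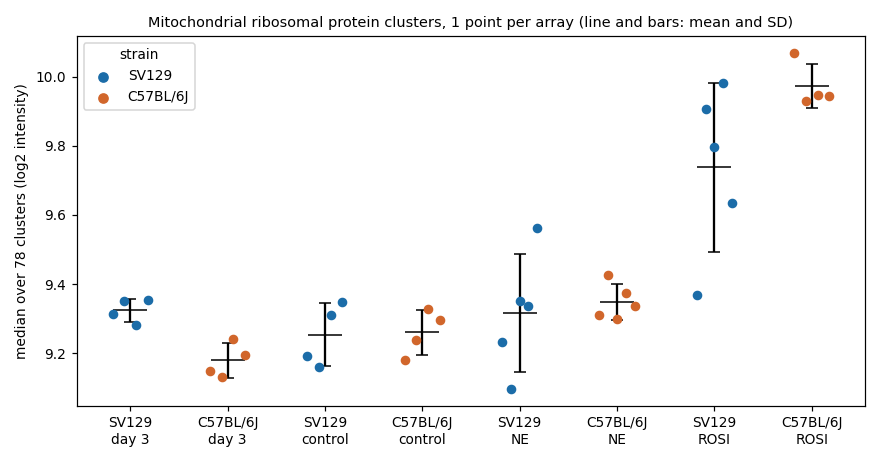
Median log2 intensity over the 78 mitochondrial ribosomal protein clusters in each of the 35 arrays (points, coloured by strain), with the mean and SD of each of the 8 groups. C57BL/6J ROSI lies at 9.93 to 10.07 and SV129 ROSI at 9.37 to 9.98, while the other 6 groups lie between 9.10 and 9.56.

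Mitochondrial ribosomal protein genes were higher almost throughout in ROSI than in control cultures. Of 78 clusters, 73 were higher, 0 were lower and 5 did not pass (limma, adjusted p under 0.01 over all clusters, strain as a covariate, n = 9 ROSI and 8 control arrays). Over all clusters the same test called 16.3% higher and 11.6% lower, so that 58.4% of all calls were higher, against 45.7% after quantile normalization and 47.3% after median centring. Under each of these scalings 72 members were higher. The median change of the members was 0.55 log2 (1.46-fold), with quartiles at 0.43 and 0.75 and a range of 0.05 to 1.28, against a median of 0.01 over all clusters. In 29 of the 78, every ROSI array lay above every control array of either strain, which held for 3.61% of all clusters. Without the 4 arrays that stood apart, the count was again 73, and the median change of the members was 0.65. The removed ROSI arrays had the lowest member medians of ROSI arrays (9.37 and 9.63). The removed control arrays had the highest of SV129 control (9.31 and 9.35). A larger change without them thus follows from the choice of arrays and is no independent check.

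**Figure D2:**
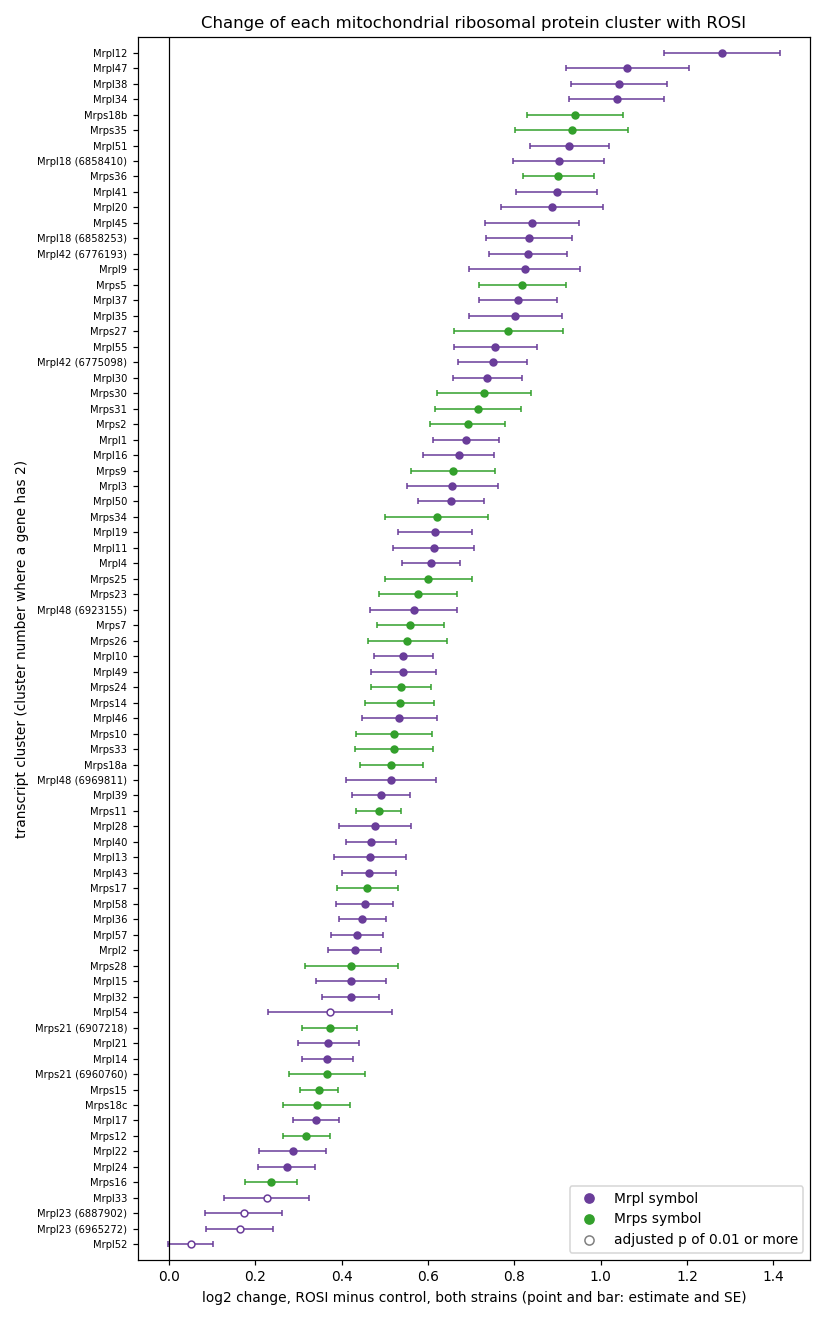
Log2 change between ROSI and control cultures with its SE for each of the 78 clusters, sorted by size, with filled points where the adjusted p was under 0.01. All 78 points lie above 0, from 0.05 for Mrpl52 to 1.28 for Mrpl12, and Mrpl and Mrps symbols are mixed along the order.

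Among clusters listed here as large subunit proteins with bacterial relatives, 27 of 30 were higher, with a median of 0.58. The lists are a rough split. Some proteins listed as specific to mitochondria, such as Mrps18a, Mrps18b, Mrps28 and Mrpl55, may have bacterial relatives. The largest change of all members was that of Mrpl12, which forms the stalk that brings translation factors to the ribosome and is also known to bind the mitochondrial RNA polymerase. Its level was 9.60, 9.61, 9.67 and 9.72 in SV129 control and 9.96, 10.67, 10.84, 11.08 and 11.35 in SV129 ROSI arrays. In C57BL/6J it was 9.73, 9.73, 9.80 and 9.89 in control and 11.17, 11.17, 11.21 and 11.40 in ROSI arrays. The groups did not overlap in either strain, though the lowest ROSI array, SV129 replicate 1, stood well below the other 8. The change was 1.28 (SE 0.13, 2.43-fold, adjusted p = 2.26e-06).

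Mrpl47, related to the bacterial protein L29 at the exit of the peptide tunnel, followed with a change of 1.06 (SE 0.14, 2.09-fold, adjusted p = 1.84e-05). SV129 control arrays were at 8.23, 8.27, 8.29 and 8.38, and SV129 ROSI arrays at 8.40, 8.86, 9.41, 9.59 and 9.75. C57BL/6J control arrays were at 8.24, 8.35, 8.36 and 8.45, and C57BL/6J ROSI arrays at 9.42, 9.58, 9.61 and 9.73. Within each strain the groups were apart, in SV129 only just, but SV129 ROSI replicate 1 lay inside the range of the C57BL/6J control arrays. Mrpl34, a small basic protein of the same subunit, rose by 1.04 (SE 0.11), from a mean of 10.89 to 11.91. Mrpl18, a relative of the bacterial protein that binds 5S ribosomal RNA, is represented by 2 clusters, which rose by 0.90 and 0.83. Mrpl20 (0.89), Mrpl9 (0.82) and Mrpl35 (0.80) rose by similar amounts. Mrpl24, which like Mrpl47 has its bacterial relative at the tunnel exit, had the smallest change among those of this group that passed, 0.27 (SE 0.07, adjusted p = 0.00318).

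Of 22 clusters listed here as large subunit proteins specific to mitochondria, 20 were higher, with a median of 0.55. Mrpl38, part of the central protuberance of the subunit, rose by 1.04 (SE 0.11, 2.06-fold, adjusted p = 2.48e-06). Mrpl51 rose by 0.93, Mrpl41 by 0.90, Mrpl45, which anchors the ribosome to the inner membrane, by 0.84, and Mrpl37 by 0.81. Mrpl58, a peptidyl-tRNA hydrolase that frees stalled ribosomes, rose by 0.45 (SE 0.07). Mrps30 and Mrps18a carry small subunit names but sit in the large subunit. Mrps30 rose by 0.73 (SE 0.11, adjusted p = 4.71e-05) from a mean of 8.03 to 8.76. The 2 clusters of Mrpl42 rose by 0.83 and 0.75, and that with the smaller change (cluster 6775098, the member with the lowest mean signal) went from a mean of 6.38 to 7.12.

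All 15 clusters listed here as small subunit proteins with bacterial relatives were higher, with a median of 0.49. Mrps5, the relative of a bacterial protein that helps keep decoding accurate, changed most among them, by 0.82 (SE 0.10). Mrps16 changed least, by 0.24 (SE 0.06, adjusted p = 0.00457). Mrps21 cluster 6907218, the member with the highest mean signal, rose by 0.37 (SE 0.06), and the second Mrps21 cluster also by 0.37 (SE 0.09). All 10 clusters listed here as small subunit proteins specific to mitochondria were higher too, with a median of 0.61. Among them Mrps18b rose by 0.94 (SE 0.11), Mrps35 by 0.93 (SE 0.13) and Mrps27, an RNA-binding protein with pentatricopeptide repeats, by 0.79 (SE 0.13).

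The 3 Mrps18 genes encode related proteins that occupy different places. Mrps18c sits where the bacterial protein S18 does, Mrps18b elsewhere in the small subunit, and Mrps18a in the large subunit. Mrps18b lay at 10.37, 10.48, 10.67 and 10.71 in SV129 control and 10.77, 11.22, 11.54, 11.70 and 11.75 in SV129 ROSI arrays. In C57BL/6J it lay at 10.42, 10.56, 10.58 and 10.76 in control and 11.59, 11.61, 11.65 and 11.69 in ROSI arrays. It was thus higher in each ROSI array than in all 8 control arrays. The lowest ROSI array, at 10.77, was only just above the highest control array, at 10.76. The change was 1.92-fold on average (adjusted p = 5.58e-06). Mrps18a rose by 0.52 (SE 0.07, adjusted p = 3.02e-05), with groups that were apart within each strain and overlapped across strains. Mrps18c rose by 0.34 (SE 0.08, adjusted p = 0.00177), and its lowest C57BL/6J ROSI array, at 8.82, lay under the highest control array of that strain, at 8.83. The differences between the 3 genes in the size of change were not tested.

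Mrps36 fits neither subunit: despite its name, its protein belongs to the oxoglutarate dehydrogenase complex of the tricarboxylic acid cycle. It was at 8.82, 8.83, 8.83 and 8.88 in SV129 control and 9.12, 9.61, 9.69, 9.78 and 9.93 in SV129 ROSI arrays. It was at 8.89, 8.94, 8.96 and 9.01 in C57BL/6J control and 9.93, 9.99, 9.99 and 10.00 in C57BL/6J ROSI arrays. No ROSI array overlapped with a control array, and the change was 0.90 (SE 0.08, adjusted p = 9.82e-07). RefSeq lists pseudogenes of Mrps36, as of Mrpl23, Mrpl48 and Mrpl27, so that signal of near-identical copies may be counted with these genes.

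The 5 clusters that did not pass, named here after their values were seen, all belong to the large subunit. Mrpl52 was at 10.45, 10.47, 10.53 and 10.55 in SV129 control and 10.40, 10.58, 10.60, 10.63 and 10.75 in SV129 ROSI arrays. In C57BL/6J, Mrpl52 was at 10.42, 10.50, 10.55 and 10.61 in control and 10.33, 10.53, 10.61 and 10.64 in ROSI arrays. The ranges overlapped fully in C57BL/6J, and the change was 0.05 (SE 0.05, adjusted p = 0.507). Both clusters of Mrpl23, whose bacterial relative lines the tunnel exit, had small values, 0.17 (SE 0.09, adjusted p = 0.145) and 0.16 (SE 0.08, adjusted p = 0.11). Mrpl33 had 0.23 (SE 0.10, adjusted p = 0.0825). Mrpl54 had a larger but uneven difference of 0.37 (SE 0.14, adjusted p = 0.0491), with C57BL/6J ROSI arrays at 9.66, 10.42, 10.47 and 10.65. Without the lowest of these, C57BL/6J ROSI replicate 3, its change was 0.48 and passed (adjusted p = 0.003). That array was picked after its value was seen, and a larger change without it follows from the choice, so this is no independent check.

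**Figure D3:**
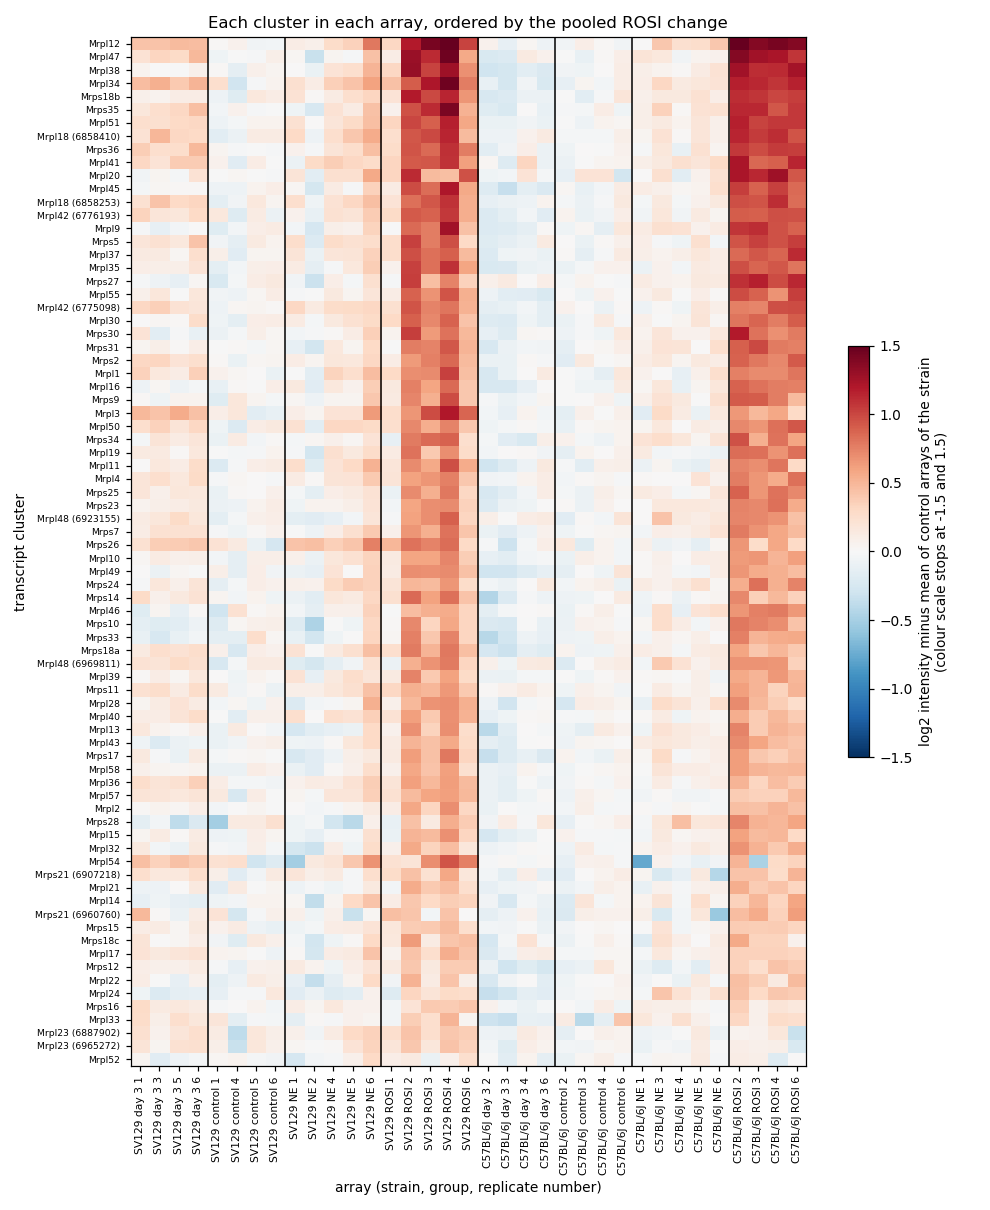
Log2 intensity of each of the 78 clusters in each of the 35 arrays minus the mean of the 4 control arrays of the same strain (colour), with clusters ordered by their pooled ROSI change and arrays by strain and group. The ROSI columns are raised in nearly every row, with SV129 ROSI replicate 1 palest and replicate 6 next, and SV129 NE replicate 6 is raised among NE arrays.

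Fitted within each strain (cell means model over all 35 arrays), 69 clusters were higher with ROSI in SV129 and 70 in C57BL/6J, against 12.2% and 15.8% of all clusters. The median change was 0.50 in SV129 and 0.63 in C57BL/6J. The same 66 clusters were higher in both strains, 3 in SV129 alone, 4 in C57BL/6J alone, and 5 in neither. Of all clusters, 10.3% were higher in both. Mrpl22 and Mrps18c passed over both strains together but in neither alone. The change of Mrps18c was 0.36 (adjusted p = 0.0133) in SV129 and 0.32 (adjusted p = 0.0274) in C57BL/6J.

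In SV129 the count depended on single arrays. It was 72 without ROSI replicate 1 and 54 without ROSI replicate 4. With only the 9 SV129 control and ROSI arrays in the model 0 members passed, while 72 had an unadjusted p under 0.05 and 46 an adjusted p under 0.05 (limma). Of all clusters, 1 passed there. In C57BL/6J the same kind of fit, on 8 arrays, gave 71 members. The SD of the member median was 0.24 in SV129 ROSI and 0.06 in C57BL/6J ROSI arrays, and the model over all groups uses 1 estimate of the spread for both. In SV129 ROSI replicate 1, 53 of the 78 clusters lay above all 4 SV129 control arrays and 4 below all of them. In the other SV129 ROSI arrays, 73 to 78 lay above, as did 73 to 76 in C57BL/6J ROSI arrays. Adipocyte markers moved alongside. Cidec, a lipid droplet protein, was at 9.95 in SV129 ROSI replicate 1 and at 11.44 to 12.17 in the other 4 arrays, and their part in the result was not tested.

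**Figure D4:**
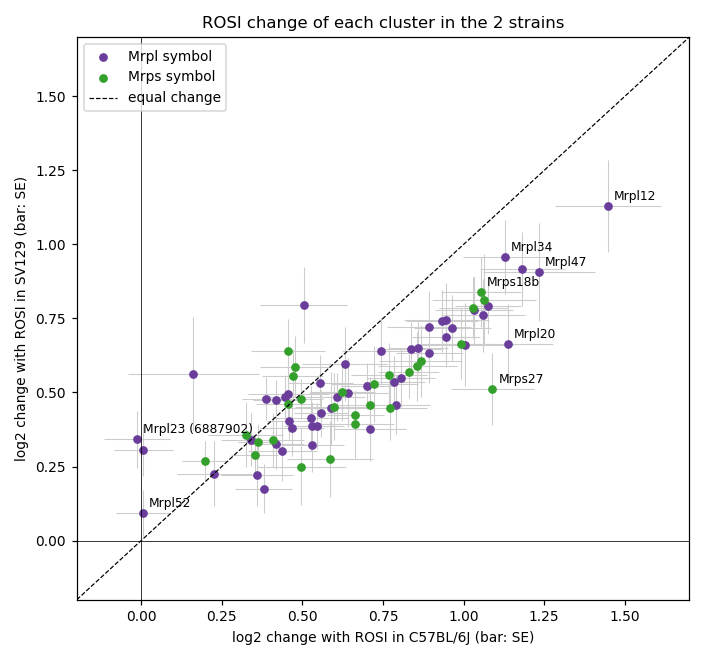
Log2 change with ROSI of each of the 78 clusters in C57BL/6J (horizontal) and SV129 (vertical), with SE bars and a line of equal change. Most points, 63 of 78, lie under the line, Mrps27 and Mrpl20 far below it and the Mrpl23 clusters above it.

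The change with ROSI was smaller in SV129 for 63 of the 78 clusters, with a median difference of -0.17. In the test of that difference (interaction of ROSI with strain) 0 members passed, as against 0.206% of all clusters, and 7 had an unadjusted p under 0.05, against 14% of all clusters. The smallest p was that of Mrps27. It was at 8.38, 8.58, 8.72 and 8.75 in SV129 control and 8.59, 8.96, 9.06, 9.35 and 9.65 in SV129 ROSI arrays. In C57BL/6J it was at 8.32, 8.34, 8.35 and 8.41 in control and 9.33, 9.45, 9.48 and 9.51 in ROSI arrays. The rise was 0.51 (SE 0.12) in SV129 and 1.09 (SE 0.13) in C57BL/6J, a difference of -0.58 (SE 0.18, adjusted p = 0.111). Mrpl23 ran the other way, with 0.34 (adjusted p = 0.00746) and 0.31 (adjusted p = 0.00765) for its 2 clusters in SV129 and -0.01 and 0.01 in C57BL/6J, which did not pass as a difference either (adjusted p = 0.249 and 0.283).

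Members were also higher in ROSI than in NE cultures, 71 of 78 with 0 lower, at a median of 0.49 (1.40-fold). Of all clusters, 15.8% were higher and 12% lower. By subunit, 46 of 52 large subunit and 24 of 25 small subunit clusters were higher, and so was Mrps36, by 0.77 (SE 0.09, adjusted p = 1.92e-05). This comparison shares its ROSI arrays with that against control.

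The largest difference was that of Mrpl47, 1.01 (SE 0.14, adjusted p = 2.34e-05), followed by Mrpl12 at 0.99 (SE 0.14) and Mrpl38 at 0.90 (SE 0.11). Mrpl47 lay at 7.96, 8.27, 8.32, 8.33 and 8.73 in SV129 NE and 8.30, 8.41, 8.41, 8.51 and 8.54 in C57BL/6J NE arrays. The highest SV129 NE array was thus above the lowest SV129 ROSI array given above. SV129 ROSI replicate 1 was the lowest ROSI array for 70 of the 78 clusters, and SV129 NE replicate 6 the highest NE array for 60. The ROSI and NE groups were fully apart for 1 member, against 0.267% of all clusters. That member, named after its values were seen, was Mrpl30, a relative of the bacterial protein L30, with a mean of 10.36 in NE and 10.97 in ROSI arrays. The smallest difference was 0.03.

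With NE, no member passed. Of the 78 clusters 0 were higher and 0 lower than in control (n = 10 NE and 8 control arrays), and neither did any of all clusters pass, 0% in either direction. Still, 76 of 78 had a positive value. The members had a median of 0.09 and a range of -0.08 to 0.29, against a median of 0.01 over all clusters. All 11 adipocyte markers had positive values with NE too, from 0.02 to 1.14 with a median of 0.37, and 0 passed. Their part in the values of members was not tested. An unadjusted p under 0.05 was found for 25 members, against 11.4% of all clusters. The largest values were those of Mrpl12, 0.29 (SE 0.08, adjusted p = 0.105), and Mrpl34, 0.27 (SE 0.07, adjusted p = 0.105). Mrpl12 lay at 9.72, 9.77, 9.93, 9.99 and 10.44 in SV129 NE and 9.79, 10.03, 10.05, 10.19 and 10.20 in C57BL/6J NE arrays. In C57BL/6J the lowest NE array was inside the control range given above, and in SV129 it was level with the highest control array.

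Within strains, 0 members passed with NE in SV129 (median 0.09) and 0 in C57BL/6J (median 0.07), as against 0.212% and 0% of all clusters. An unadjusted p under 0.05 was found for 14 in SV129 and 1 in C57BL/6J, against 16.7% and 2.5% of all clusters. SV129 NE arrays spread widely. In replicate 6, 74 of 78 clusters lay above all SV129 control arrays, whereas in replicate 2 only 5 did and 29 lay below all of them. The summed adipocyte markers were 15.63 and 15.16 in these arrays, the highest and the lowest of the 5. Mrps26 had the smallest p in SV129, with 7.70, 7.85, 8.07 and 8.16 in control and 8.30, 8.36, 8.38, 8.40 and 8.70 in NE arrays. These groups did not overlap, and the difference was 0.48 (SE 0.11, adjusted p = 0.0217). In the interaction of NE with strain 0 members passed (0% of all clusters) and 2 had an unadjusted p under 0.05 (8.75% of all clusters).

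Between day 3 and day 7 without drug few members differed. Over both strains 1 of 78 was higher and 0 lower at day 7 (n = 8 and 8 arrays), against 9.69% and 5.6% of all clusters. The median was -0.02, and 17 members had an unadjusted p under 0.05, against 35.5% of all clusters. The single call was Mrpl24. At day 3 it was at 8.96, 9.04, 9.04 and 9.11 in SV129 and 8.74, 8.81, 8.91 and 8.95 in C57BL/6J. At day 7 it was at 9.05, 9.15, 9.16 and 9.33 and 9.03, 9.06, 9.11 and 9.13. The groups were apart in C57BL/6J and overlapped in SV129, and the change was 0.18 (SE 0.04, adjusted p = 0.00536). It did not pass without C57BL/6J day 3 replicate 2 or 3, SV129 day 3 replicate 3, C57BL/6J control replicate 4 or 6, or SV129 control replicate 6, each left out alone, with adjusted p between 0.011 and 0.013.

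The signs of the change in time differed between strains, but no member passed in the test of that difference. In SV129, 65 of 78 clusters were lower at day 7, with a median of -0.12, and in C57BL/6J 67 were higher, with a median of 0.07. Calls were few: 2 in SV129, both lower, against 13.3% of all clusters in either direction, and 0 in C57BL/6J, against 4.04%. An unadjusted p under 0.05 was found for 22 and 5 members, against 30.5% and 20% of all clusters. The 2 calls were Mrpl36, related to the smallest protein of the bacterial large subunit, at -0.26 (SE 0.07, adjusted p = 0.00847), and Mrpl34 at -0.47 (SE 0.13, adjusted p = 0.00856). Mrpl34 was at 11.18, 11.26, 11.30 and 11.32 at day 3 and 10.50, 10.78, 10.84 and 11.04 at day 7 in SV129, where the groups did not overlap. In C57BL/6J it was at 10.73, 10.76, 10.88 and 10.93 and then 10.86, 10.95, 11.04 and 11.11, where they did. Leaving out single arrays gave 0 to 3 lower calls in SV129, while there were 9 with quantile normalization, 5 with median centring, 5 without the 4 arrays that stood apart and 12 with only the arrays of the contrast. In the interaction of day with strain 72 of 78 values were negative (median -0.21), 0 members passed (0.529% of all clusters) and 17 had an unadjusted p under 0.05 (16.7% of all clusters). The smallest p was that of Mrpl34, with a difference of -0.64 (SE 0.19, adjusted p = 0.0521). Over both strains, 8 of 9 macrophage markers were higher and 9 of 13 cell cycle genes lower at day 7, against 9.69% and 5.6% of all clusters. Of 11 adipocyte markers 0 passed over both strains, but their summed level moved in opposite directions in the 2 strains. In SV129 it was 15.38 to 15.48 at day 3 and 14.80 to 15.16 at day 7. In C57BL/6J it was 14.95 to 15.04 and then 15.15 to 15.46. The part of cell types in these changes was not tested.

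Levels were also compared between strains within each condition, and 0 members passed in any of the 4. At day 3, 73 of 78 were higher in SV129, with a median of 0.15, and 20 had an unadjusted p under 0.05. Over all clusters 0.785% passed and 14.6% had such a p. With only the arrays of that contrast 13 members were higher, and 2 without the 4 arrays that stood apart. In control cultures the median was -0.05 and 6 members had an unadjusted p under 0.05, with 0.407% and 17.1% over all clusters. In NE cultures the median was -0.02 and the number 4, with 1.71% and 19% over all clusters. In ROSI cultures 74 of 78 were lower in SV129, with a median of -0.17, and 32 had an unadjusted p under 0.05, with 2.52% and 22.9% over all clusters. Mrps26, a small subunit protein found only in mitochondria, had the smallest p in control cultures, with 7.70, 7.85, 8.07 and 8.16 in SV129 and 8.17, 8.31, 8.41 and 8.51 in C57BL/6J arrays. The difference was -0.41 (SE 0.11, adjusted p = 0.0482), and the lowest values were those of SV129 control replicates 5 and 6, which stood apart. In ROSI cultures the smallest p was that of Mrpl42 cluster 6775098, with 6.56, 6.84, 7.06, 7.12 and 7.26 in SV129 and 7.18, 7.20, 7.41 and 7.43 in C57BL/6J arrays. These groups overlapped, and the difference was -0.34 (SE 0.09, adjusted p = 0.0148). With quantile normalization 7 members and with median centring 8 were lower in SV129 ROSI. Without SV129 ROSI replicate 4, 10 members were lower in SV129 ROSI than in C57BL/6J ROSI. Without replicate 2 there were 6, and without replicate 3 there were 2. Summed adipocyte markers at day 3 were 15.38 to 15.48 in SV129 and 14.95 to 15.04 in C57BL/6J. In control cultures they were 14.80 to 15.16 and 15.15 to 15.46, and in NE cultures 15.16 to 15.63 and 15.30 to 15.55. In ROSI cultures they were 15.47 to 16.13 and 16.16 to 16.18. Their part in the strain differences was not tested.

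The partners of the ribosome moved in the same direction with ROSI. All 4 measured ribosomal proteins with other names were higher: Ptcd3 by 0.97 (SE 0.11), Chchd1 by 0.60 (SE 0.09), Gadd45gip1 by 0.49 (SE 0.12) and Dap3 by 0.24 (SE 0.05). So were all 12 translation factors (median 0.54), with the elongation factors Gfm1 up by 0.97 (SE 0.13) and Tufm by 0.95 (SE 0.09) and the initiation factor Mtif2 by 0.77 (SE 0.10). Of 15 genes for assembly of the ribosome and modification of its RNA 14 were higher, led by the GTPase Mtg1 (0.92), the methyltransferase Tfb1m (0.73) and the methyltransferase Mrm3 (0.69). Of 15 mitochondrial aminoacyl-tRNA synthetases 14 were higher, led by Nars2 (0.83), Rars2 (0.75) and Tars2 (0.64). The helicase Dhx30 (0.12, adjusted p = 0.0993) and the synthetase Wars2 (0.24, adjusted p = 0.067) did not pass.

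Of 11 genes for the copying and reading of mitochondrial DNA 8 were higher and 3 did not pass, with a median of 0.34. The elongation factor Tefm had 0.99 (SE 0.12), the nuclease Mgme1 0.56 (SE 0.14) and the transcription factor Tfb2m 0.50 (SE 0.08). Of 10 regulators of mitochondrial biogenesis 3 were higher and 0 lower: the coactivators Ppargc1a (1.85, SE 0.26) and Ppargc1b (1.15, SE 0.14) and the nuclear receptor Esrra (0.80, SE 0.13). The factors Nrf1 (0.09, adjusted p = 0.239), Gabpa (0.14, adjusted p = 0.043) and Yy1 (-0.10, adjusted p = 0.016), known to bind promoters of mitochondrial genes, did not pass. Of 8 mitochondrial chaperones and proteases 7 were higher, with Hspd1 at 0.75, Clpp at 0.74 and Clpx at 0.59.

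The respiratory chain, which the mitochondrial ribosome serves, and the cytosolic ribosome, its counterpart outside, gave different counts. Of 73 clusters for nuclear genes of the respiratory complexes 70 were higher with ROSI and 1 lower, with a median of 0.75. Cox8b, a muscle and brown fat form of a cytochrome oxidase subunit, rose by 2.45 (SE 0.25), cytochrome c1 (Cyc1) by 1.33 (SE 0.14) and the succinate dehydrogenase subunit Sdhb by 1.30 (SE 0.15). The exception was Cox4i2, an alternative form of another cytochrome oxidase subunit, at -0.50 (SE 0.11, adjusted p = 0.00174). For cytosolic ribosomal proteins there were 76 clusters but only 43 genes, so some genes count more than once. The 73 respiratory clusters cover 68 genes. Of the 76 cytosolic clusters, 0 were higher and 5 lower, with a median of -0.07 over all 76. Among the 5 that passed, Rps20 was lowest at -0.28 (SE 0.06, adjusted p = 0.00197). The difference between the groups was not tested.

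**Figure D5:**
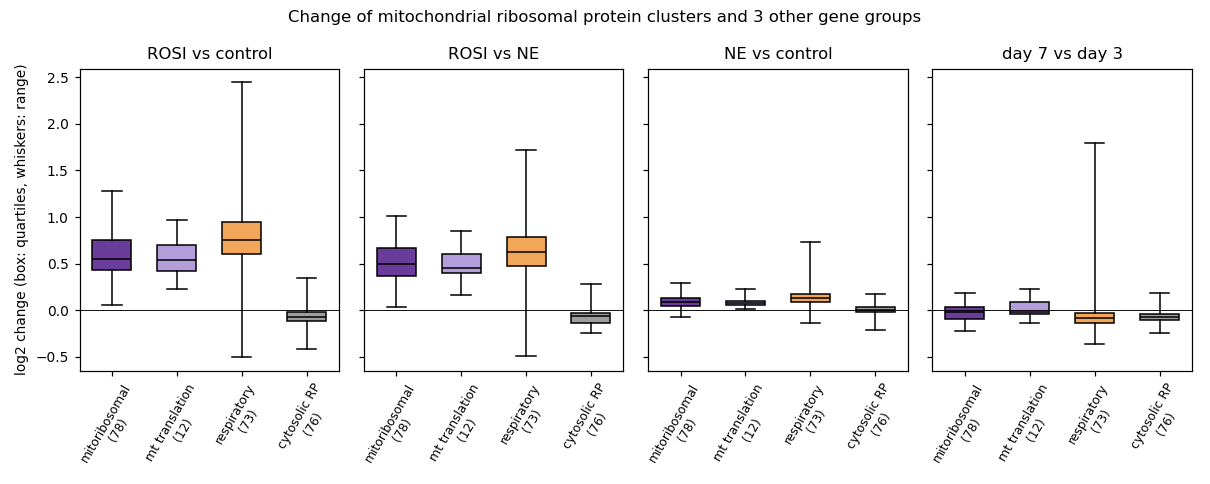
Log2 changes in 4 comparisons (panels) for the 78 mitochondrial ribosomal protein clusters, 12 mitochondrial translation factors, 73 clusters of respiratory complex genes and 76 clusters of cytosolic ribosomal proteins, as boxes of quartiles with whiskers over the whole range. With ROSI against control the medians are 0.55, 0.54, 0.75 and -0.07, and with NE against control 0.09, 0.07, 0.14 and 0.00.

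Most markers of adipocytes and preadipocytes changed as well, while few of the other lists passed. Over all clusters, 16.3% were higher and 11.6% lower with ROSI. The part of cell types in the results above was not tested. Of 11 adipocyte markers 10 were higher with ROSI (median 1.22), led by Cidec (3.37), the glucose transporter gene Slc2a4 (2.05) and Retn (1.49). Their summed level ran from 14.80 to 15.46 in control and from 15.47 to 16.18 in ROSI arrays. Of 7 preadipocyte markers 5 were lower, led by Dpp4 (-1.15), Pi16 (-0.93) and Pdgfra (-0.77), with summed levels of 14.19 to 14.41 in control and 13.41 to 14.16 in ROSI arrays. Of 9 macrophage markers 1 was lower, Itgam (-0.44), and the summed level was 12.20 to 12.70 in control and 11.96 to 12.83 in ROSI arrays. Of 6 endothelial markers 1 was lower, Tek (-0.93), and of 6 skeletal muscle markers 1 was higher, Des (0.55). Of 5 epithelial markers 0 passed. Epcam, which defines epithelial cells, had group means of 5.86 to 6.07, under the lower quartile of all values at 6.44. Of 13 cell cycle genes 2 were lower, Bub1 (-0.46) and Mcm3 (-0.36).

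Promoter sequences are shown because the members moved together, and because Nrf1, Gabpa and Yy1 are known to bind such promoters. RefSeq (GRCm38.p6) gave 70 windows, from 250 bases before to 50 after a transcription start, for 64 of the 73 genes. These windows of 300 bases were searched on both strands for exact letters, and the 120 bases before the start are printed 5′ to 3′ on the gene's strand. Capitals mark the core of the ETS family, to which Gabpa belongs (CCGGAAG or its reverse complement), and the core of Nrf1 (GCGCA, any base, then GCGC, or its reverse complement). Shown are 3 of the strongest risers with a match (Mrpl12, Mrpl34, Mrpl51), the strongest riser with none (Mrpl47) and the cluster with the smallest change (Mrpl52), chosen after their values were seen.
Mrpl12, chr11:120484517-120484636, plus strand: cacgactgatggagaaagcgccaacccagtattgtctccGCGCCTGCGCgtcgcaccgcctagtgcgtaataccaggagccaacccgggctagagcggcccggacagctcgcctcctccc
Mrpl34, chr8:71464806-71464925, plus strand: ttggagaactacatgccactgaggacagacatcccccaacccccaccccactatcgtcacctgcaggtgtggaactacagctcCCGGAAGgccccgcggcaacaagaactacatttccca
Mrpl51, chr6:125192080-125192199, plus strand: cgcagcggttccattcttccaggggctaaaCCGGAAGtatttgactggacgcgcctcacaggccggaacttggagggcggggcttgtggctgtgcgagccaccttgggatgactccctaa
Mrpl47, chr3:32736756-32736875, minus strand: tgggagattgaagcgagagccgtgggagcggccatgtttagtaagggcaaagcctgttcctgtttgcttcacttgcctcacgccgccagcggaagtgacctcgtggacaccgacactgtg
Mrpl52, chr14:54426789-54426908, plus strand: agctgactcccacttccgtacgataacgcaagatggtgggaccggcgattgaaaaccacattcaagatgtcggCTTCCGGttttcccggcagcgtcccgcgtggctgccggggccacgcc

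The ETS letters were found in 23 of 70 windows of members (32.9%), against 8.86% of all 32851 promoter windows of the mouse. The Nrf1 letters were found in 12 (17.1%), against 4.6%, and either in 31 (44.3%), against 12.6%. The letters of Yy1 (AAGATGGCG) were found in 8 (11.4%), against 1.4%. In contrast, the half-site of the ERR family, to which Esrra belongs (AAGGTCA), was found in 4 (5.71%), against 4.72%, and TATAAA in 5 (7.14%), against 13.6%. The ETS and Yy1 letters can share their AAG, so 1 stretch can match both, and a window can hold several motifs. The Mrpl12 window also held an ERR match. Mrpl52, with an ETS match, had a change of 0.05 that did not pass, and Mrpl47, with no ETS or Nrf1 match, rose by 1.06. Over members with a window, the median change with ROSI was 0.49 for 26 clusters with an ETS match and 0.61 for 43 without. For Nrf1 it was 0.49 for 13 with and 0.55 for 56 without. The promoter windows of the mouse were not matched to those of members in base content. Whether the higher shares are particular to these genes was not tested. A match is a description of letters and not a bound site.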

How the data were processed

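Expression of 35 cultures was measured on Affymetrix Mouse Exon 1.0 ST arrays. The deposited values are log2 intensities per transcript cluster that the authors made with RMA in Affymetrix Power Tools. Versions, annotation and genome build are not given in the labels or methods, so no coordinates of clusters are printed. Arrays have no counting depth, and the number of arrays limits the precision. RMA as usually run brings all arrays to 1 distribution, so a shift shared by most genes may not be seen. Some difference between arrays remained in the deposited values, with array medians from 8.03 to 8.24. The share of signal from near-identical copies is unknown.

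Samples were grouped by strain, day and treatment in the labels. The 17958 clusters were tested with limma 3.58.1 (R 4.3.3, data.table version 1.17.8), two-sided, with Benjamini-Hochberg adjustment over all clusters at 0.01. Changes over both strains were fitted on the compared arrays with strain as a covariate. Changes within strains, strain differences and interactions were contrasts of the 8 group means over all 35 arrays. The procedure was tested on simulated data. Summaries and figures used Python 3.11.15, pandas 2.3.3, numpy 2.4.6 and matplotlib 3.10.9. No pair of arrays held identical values.

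Promoter windows are those of RefSeq on GRCm38.p6. Members, gene lists and tests were chosen with earlier results of these data known. Members named were the 5 largest rises and 5 largest falls past the threshold in each comparison over both strains, up to 2 members of smallest p past the threshold per strain difference or interaction, the members of highest and lowest mean signal, the Mrps18 genes, Mrps30, Mrps36 and Mrpl12. From other lists up to 3 genes past the threshold were taken by size of change with ROSI. All other genes given by name were chosen after their values were seen. Alternatives were another threshold, no strain term, all arrays in 1 model, array weights, quantile normalization, median centring, removal of the dimmest 25% of clusters, a replicate block, removal of 4 arrays that stood apart, only the arrays of a contrast, and removal of each array in turn.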

Additional observations from a re-analysis of the deposited data

Results flagged for a closer look

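Among 24 series of values (23 clusters and the median over members), 192 groups of 4 or 5 arrays were examined for a lone array far from the rest of its group. In 12 of them 1 array lay farther off than Dixon's 95% limit, where chance gives about 1 in 20 groups.

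In SV129 NE arrays there were 4 such values. Mrpl3 in replicate 6 was at 10.61, against 10.01 to 10.18 in the other arrays. Mrps26 in replicate 6 was at 8.70, against 8.30 to 8.40. Mrpl41 in replicate 1 was at 8.71, against 9.08 to 9.17. Mrpl42 cluster 6775098 in replicate 2 was at 6.45, against 6.59 to 6.63.

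In SV129 control arrays there were 3. Mrps18a in replicate 4 was at 9.53, against 9.82 to 9.87, and 1 of the Mrpl23 clusters in the same array was at 10.48, against 10.95 to 11.03. Mrps36 in replicate 1 was at 8.88, against 8.82 to 8.83, a gap that is small on the log2 scale. In SV129 ROSI, Mrpl24 in replicate 1 was at 8.98, against 9.36 to 9.49.

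The remaining values came from C57BL/6J. The other Mrpl23 cluster in ROSI replicate 6 was at 10.29, against 10.60 to 10.63. Mrpl54 in NE replicate 1 was at 9.37, against 10.03 to 10.21. Mrpl20 in day 3 replicate 4 was at 9.77, against 9.49 to 9.54. The median over members in ROSI replicate 2 was 10.07, against 9.93 to 9.95.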

How the results depend on the processing

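For ROSI against control, 68 to 74 clusters were higher under every alternative, and 70 to 73 when single arrays were left out. The split of all calls in that comparison turned from more higher to more lower with the scaling. Of all clusters called, 45.7% were higher after quantile normalization and 47.3% after median centring, against 58.4% as reported, and the median of the members was 0.49 and 0.50 there. For ROSI against NE, single arrays left out gave 66 to 74 clusters. In C57BL/6J ROSI they gave 66 to 71, and in SV129 ROSI 54 to 72. With only the arrays of the contrast, SV129 ROSI gave 0 and C57BL/6J ROSI 71, and the cause was not tested.

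Replicate numbers are shared between groups, but in no comparison was every pair of the same number correlated over 0.1. Of 7 pairs each, 1 was over 0.1 for ROSI and control (-0.14 to 0.16), 2 for NE and control (-0.31 to 0.30), 0 for day 7 and day 3 (-0.04 to 0.10) and 1 for ROSI and NE (-0.24 to 0.12). With a replicate block, 68 clusters were higher for ROSI against control, 0 for ROSI against NE (72 with an unadjusted p under 0.05 and 67 with an adjusted p under 0.05, lowest 0.0123, limma) and 0 for day 7 against day 3. No cluster of the whole array passed for ROSI against NE in that fit.

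The few calls between days and strains also moved, and the cause was not tested. For day 7 against day 3, 2 clusters were higher at a threshold of 0.05, and 0 with no strain term, with all arrays in 1 model or without the 4 arrays that stood apart, while 3 were lower at 0.05 and 2 with median centring. Leaving out single arrays gave 0 to 2 higher. In SV129 alone, 9 were lower at day 7 with quantile normalization, 5 with median centring, 5 without the 4 arrays and 12 with only the arrays of the contrast, and single arrays left out gave 0 to 3. With NE in SV129, 1 was higher with quantile normalization and 1 with median centring, and single arrays left out gave 0 to 1. Between strains at day 3, 2 were higher in SV129 without the 4 arrays and 13 with only the arrays of the contrast. In ROSI cultures 7 were lower in SV129 with quantile normalization and 8 with median centring, and single arrays left out gave 0 to 10. For the interaction of day with strain, 1 was lower with quantile normalization and 8 with only the arrays of the contrast. For that of ROSI with strain, single arrays left out gave 0 to 1, the call coming without SV129 ROSI replicate 2. Of the values of named genes under alternatives, 2560 kept direction and side of the threshold, 52 no longer passed, 6 newly passed and 4 moved by more than the spread. Signals near background were not bounded, since the files give no detection call.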
